A study of Bos taurus with 33 samples.

Results

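The transcripts described are those of 10 genes that write, keep, remove or protect DNA methylation, chosen by symbol: DNMT1, DNMT3A, DNMT3B, DNMT3L, TET1, TET2, TET3, UHRF1, DPPA3 and TRIM28. Of these, 9 had a row in at least 1 of the deposited tables, which listed 17543 genes between them. The oocyte table held 9 of the 10 symbols among 16279 genes, and the cumulus cell (CC) table held 8 among 16244. No row of either table carried the symbol DNMT3L, and no row of the CC table carried DPPA3, so these were not analysed here. The rows used were ENSBTAG00000002736 (DNMT1), ENSBTAG00000021143 (DNMT3A), ENSBTAG00000003901 (DNMT3B), ENSBTAG00000037756 (TET1), ENSBTAG00000017682 (TET2), ENSBTAG00000022381 (TET3), ENSBTAG00000002224 (UHRF1), ENSBTAG00000046609 (DPPA3) and ENSBTAG00000006422 (TRIM28).

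DNA methylation is the addition of a methyl group to cytosine, mostly where a guanine follows. DNMT3A and DNMT3B place new methyl groups, helped in mouse germ cells by the catalytically inactive DNMT3L, whereas DNMT1 copies existing methylation to the new strand after replication at sites that UHRF1 recognises. TET1, TET2 and TET3 oxidise methylcytosine as a first step of its removal, TET3 being a family member found in the mammalian egg and zygote. DPPA3 (Stella) is a maternal protein that shields methylated DNA in the zygote, and TRIM28 (KAP1) is the corepressor that zinc finger proteins bring to imprinted regions. The mature oocyte carries a store of maternal products for the embryo, while CC are the somatic cells around it.

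Pools were made from suckled postpartum beef cows (Hereford-Angus crossbred) whose follicle growth had been synchronised with gonadotropin releasing hormone (GnRH), followed by prostaglandin F2 alpha. Small follicles (at most 11.7 mm) and large follicles (at least 12.7 mm) came from cows without estrus that received a further GnRH injection to induce the gonadotropin surge. Spontaneous follicles (11.7 to 14 mm) came from cows in estrus, which had their own surge and no further GnRH. Each library was RNA from 4 oocytes or from the CC of 4 complexes, each pool thus mixing follicles, with 6 small, 6 large and 4 spontaneous oocyte pools and 6, 6 and 5 CC pools. Collection followed GnRH or estrus by about 20 h in one label field and about 23 h in another.

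Values are reads per 1000000 reads on genes (CPM) and are not corrected for transcript length, so levels were compared between pools and not between genes. Reads on genes numbered between 7664375 and 17934916 per oocyte pool, and between 1911600 and 5772431 per CC pool. A transcript without a read could have had up to 0.167 to 0.391 CPM in an oocyte pool or 0.52 to 1.57 CPM in a CC pool, the worth of 3 reads. Such limits, and the intervals on read shares, cover counting error only. The labels matched the cells: the summed CPM of 12 oocyte markers was 7352 to 11010 in oocytes and 1.57 to 13.7 in CC, where BMP15, ZP3, ZP4, MOS and FIGLA had no row and ZP2 was at 0 in 12 of 17 pools. Cumulus and granulosa markers together came to 431 to 1041 CPM in oocytes, much of it STAR (258 to 464 CPM) and HAS2 (132 to 248 CPM), against 3510 to 8828 CPM in CC, and FSHR had no read in 11 of 16 oocyte pools. STAR and HAS2 went the other way from the sum. STAR was at 0.520 to 315 CPM in CC (median 5.64, against 387.5 in oocytes). HAS2 was at 19.4 to 176 CPM in CC (median 50.5, against 186 in oocytes). Of 10 white blood cell markers, CSF1R made up nearly all of the sum in oocytes (110.7 to 254.4 CPM of 123.2 to 260 CPM), where ITGAM and CORO1A were at 0 in all 16 pools and PTPRC, CD14, CD53 and CD48 had medians of 0. CD3E went the other way, with 0 to 16.6 CPM in oocytes (median 3.835) and 0 to 16.7 CPM in CC (median 0.356). In CC the 10 came to between 26.7 and 200.5 CPM. PTPRC, CD14, CD53, CSF1R and LAPTM5 had reads in every CC pool, with LAPTM5 at 8.78 to 100.6 CPM. Oocyte small replicate 3 stood apart, with the fewest reads of its cell type and 4.41% of them mitochondrially encoded, against 0.786 to 2.41% in the other oocyte pools.

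The widest differences lay between the cell types. DNMT1, UHRF1, DNMT3B and TET3 were higher in every oocyte pool than in any CC pool, and TET1 was higher in every CC pool than in any oocyte pool. DNMT3A, TET2 and TRIM28 had ranges that overlapped between the cell types. Among 11431 genes listed in both tables and retained in either, 22.9% had every oocyte pool above every CC pool, 13.4% the reverse, and 36.3% either, beside 4, 1 and 5 of the 8 genes of this group. The tables were scaled separately by the authors, so no test was made between them. In bulk RNA, fewer cells of a type and less RNA per cell cannot be told apart.

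**Figure D1:**
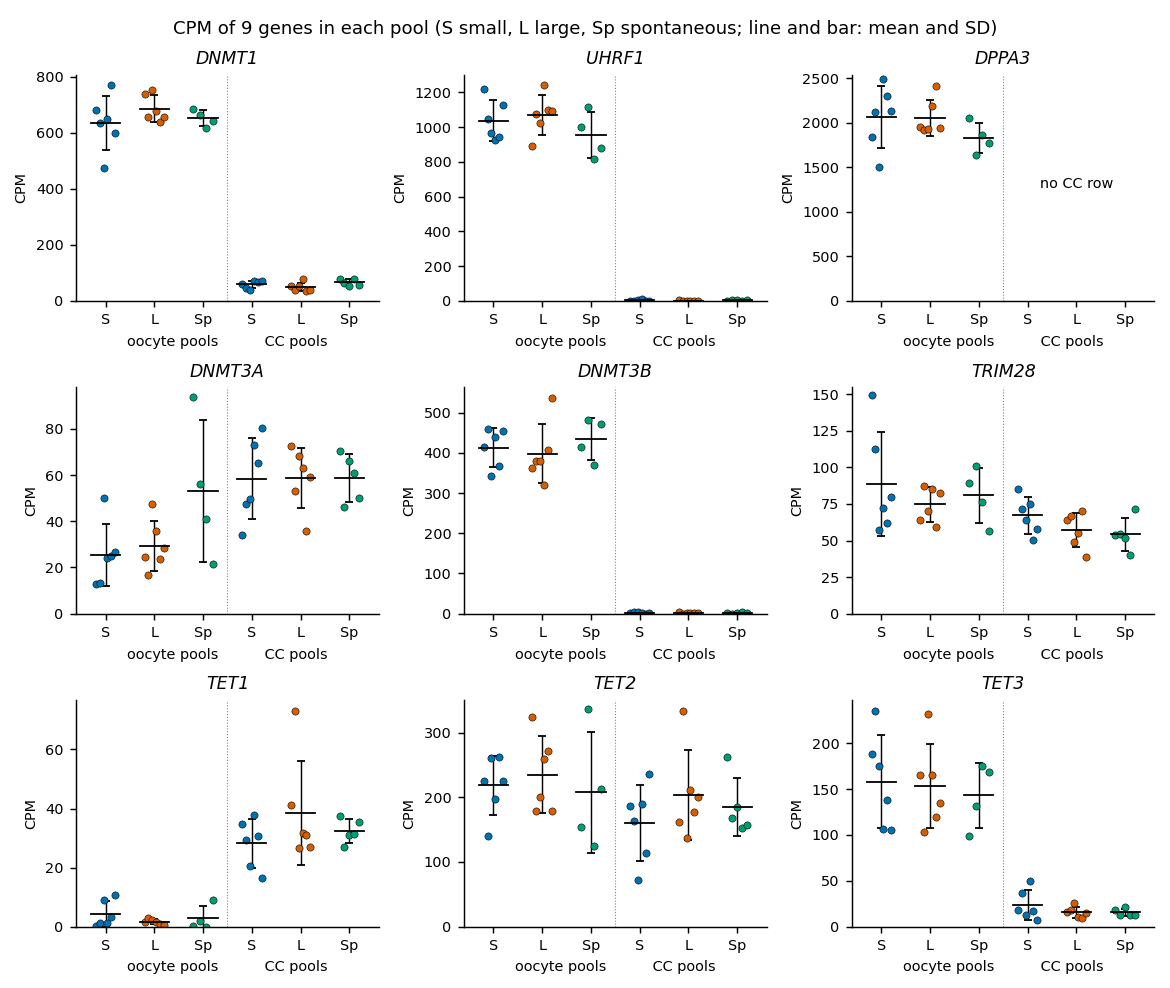
CPM of the 9 listed genes on the vertical axes (linear, from 0), with 1 point per pool, in small (S), large (L) and spontaneous (Sp) follicles of oocytes (left of each panel) and CC (right); black lines and bars give the mean and SD. DNMT1, UHRF1, DNMT3B and TET3 lie higher in all 16 oocyte pools than in the 17 CC pools, TET1 lies higher in CC, and within each cell type the follicle classifications overlap.

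The maintenance pair lay far higher in oocyte pools. UHRF1 had 815 to 1241 CPM (median 1036) over the 16 oocyte pools and 0 to 11.2 CPM (median 1.17) over the 17 CC pools. The lowest oocyte pool was 72.6 times the highest CC pool, and 3 CC pools had no UHRF1 read. DNMT1, the copying enzyme, had 474 to 771 CPM (median 657) in oocyte pools and 34.9 to 78.4 CPM (median 56.4) in CC pools. Its lowest oocyte pool was 6.05 times its highest CC pool, and every CC pool thus held DNMT1 well above the worth of 3 reads, which UHRF1 did not reach in several of them.

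The de novo methyltransferases differed in their cell type. DNMT3B had 321 to 536 CPM (median 411) in oocyte pools and 0 to 4.31 CPM (median 1.56) in CC pools, the lowest oocyte pool being 74.5 times the highest CC pool. DNMT3A had 13.0 to 93.9 CPM (median 25.8) in oocyte pools and 34.0 to 80.4 CPM (median 61.0) in CC pools, and these ranges overlapped. As a share of the reads on DNMT3A and DNMT3B together, which is not corrected for length but can be compared between pools, DNMT3B took 81.5 to 97.2% in oocyte pools (median 94.1%) and 0 to 8.28% in CC pools (median 2.43%). The lowest oocyte share, in spontaneous replicate 1, had an exact (Clopper-Pearson) 95% interval of 80.7 to 82.4%, and the highest CC share, in small replicate 2, one of 4.60 to 13.5%. This share was chosen as a description after the values had been seen.

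The TET genes also divided. TET3 had 98.5 to 235 CPM (median 152) in oocyte pools and 7.28 to 49.2 CPM (median 16.2) in CC pools. TET1 had 16.3 to 73.0 CPM (median 31.0) in CC pools and 0 to 10.7 CPM (median 1.47) in oocyte pools, of which 1 had no TET1 read. TET2 had 125 to 337 CPM (median 219) in oocyte pools and 71.7 to 334 CPM (median 177) in CC pools. Of the reads on the 3 TET genes, TET1 held 0 to 3.12% in oocyte pools and 6.27 to 19.4% in CC pools, and TET3 held 28.0 to 62.4% in oocyte pools and 2.80 to 17.8% in CC pools. Medians were 0.362% for TET1 and 38.9% for TET3 in oocyte pools, and 14.1% and 6.27% in CC pools. TET2 held the remaining reads of each pool, and none of these shares is corrected for transcript length. The share of TET3 among CC pools was highest in small replicates 2 and 4, at 16.1 and 17.8%, where TET1 held 12.7 and 13.7%.

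TET1 in oocyte pools was uneven. It was highest in small replicate 6 at 10.7 CPM, spontaneous replicate 4 at 8.92 CPM and small replicate 3 at 8.87 CPM, and no other oocyte pool passed 3.12 CPM. TNFAIP6, a CC transcript with 880 to 3024 CPM in CC pools, had 0.948 CPM in small replicate 6, 3.68 CPM in spontaneous replicate 4 and 57.1 CPM in small replicate 3. FSHR, the receptor of granulosa cells, had no read in either of these small pools and 8.81 CPM in spontaneous replicate 4, the most of any oocyte pool. INHA, another CC marker, had 16.8 CPM in small replicate 6, 33.7 in spontaneous replicate 4 and 88.7 in small replicate 3 (oocyte median 30.9). In the same order the summed cumulus and granulosa markers had 468.5, 648.1 and 882.7 CPM (oocyte median 654.5). The oocyte pool with the most TNFAIP6, large replicate 6 at 116 CPM, had 137.5 CPM of INHA and 0.507 CPM of TET1. The part of CC transcripts in these TET1 values was not tested.

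Of the protection factors, DPPA3 had 1506 to 2492 CPM (median 1943) in oocyte pools. TRIM28 had 56.8 to 149 CPM (median 78.1) in oocyte pools and 38.8 to 85.0 CPM (median 57.9) in CC pools, with overlapping ranges. Recomputing CPM without mitochondrially encoded genes left the same genes without overlap, in the same directions.

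Each gene was then compared between follicle classifications within a cell type, the question being whether the store of these transcripts differs with follicle maturity. A transcript entered the fit if 4 or more oocyte pools, or 5 or more CC pools, reached 5 CPM. limma was then run two-sided on log2(CPM + 1), and a call needed a nominal p of 0.01 or less. In comparisons with small oocyte pools a call also had to hold without small replicate 3. A log2 fold change is the classification named second minus that named first, on the log2(CPM + 1) scale, which understates changes of low transcripts. A value after ± is an SD for CPM and shares and a standard error (SE) for log2 fold changes. The oocyte fit retained 10076 transcripts, among them 8 of the 10 genes, TET1 lying under the filter. The CC fit retained 9712, among them 6, with UHRF1 and DNMT3B under the filter. Nothing in the labels says more than that the pools were separate, and p-values measure the spread between them.

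In oocytes 0 of the 8 retained genes were called from small to large, where 0.655% of all transcripts were, 0 from small to spontaneous (0.774%), and 0 for large against spontaneous (0.943%). In CC 0 of the 6 retained genes were called from small to large (0.813%), 0 from small to spontaneous (2.38%), and 0 for large against spontaneous (1.66%). With so few genes, a count of 0 is near these background shares. At an unadjusted p under 0.05, 1 of the 42 limma values passed, that of DNMT3A from small to spontaneous oocytes. Over all transcripts the share that passed was 4.11% from small to large, 4.51% from small to spontaneous and 4.87% for the remaining comparison of oocytes, and 4.00%, 8.55% and 7.07% for the same comparisons of CC. An adjusted p under 0.05 was reached by 0 of the 42 values, and by 0.0309% of CC transcripts from small to spontaneous, 0.0103% from large to spontaneous and 0% in the other 4 comparisons. DESeq2 and both edgeR tests (quasi-likelihood, likelihood ratio), run on the recovered reads, also called 0 in each of the 6 comparisons. The exact two-sided permutation test of mean CPM gave p under 0.05 for 0 of 51 gene and comparison pairs, the genes under the filter included, with a smallest p of 0.0779. Ranges overlapped between classifications in all 51 pairs. Over retained transcripts, ranges did not overlap for 0.258%, 0.903% and 0.913% of those of oocytes, and 0.247%, 1.16% and 0.865% of those of CC, in the order small to large, small to spontaneous, large to spontaneous.

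Intervals were narrowest for 4 of the oocyte transcripts. For DNMT1, UHRF1, DPPA3 and DNMT3B, the 12 estimated folds of CPM + 1 between oocyte classifications lay between 0.888 and 1.10, and their 95% intervals between 0.745 and 1.37. For TET2, TET3 and TRIM28 in oocytes the 9 intervals lay between 0.605 and 1.54, and for DNMT3A its 3 intervals between 0.695 and 3.86. In CC the intervals for DNMT1, DNMT3A and TRIM28 lay between 0.601 and 1.85 and those for TET1, TET2 and TET3 between 0.437 and 1.97. Changes inside these intervals could have gone uncalled.

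**Figure D2:**
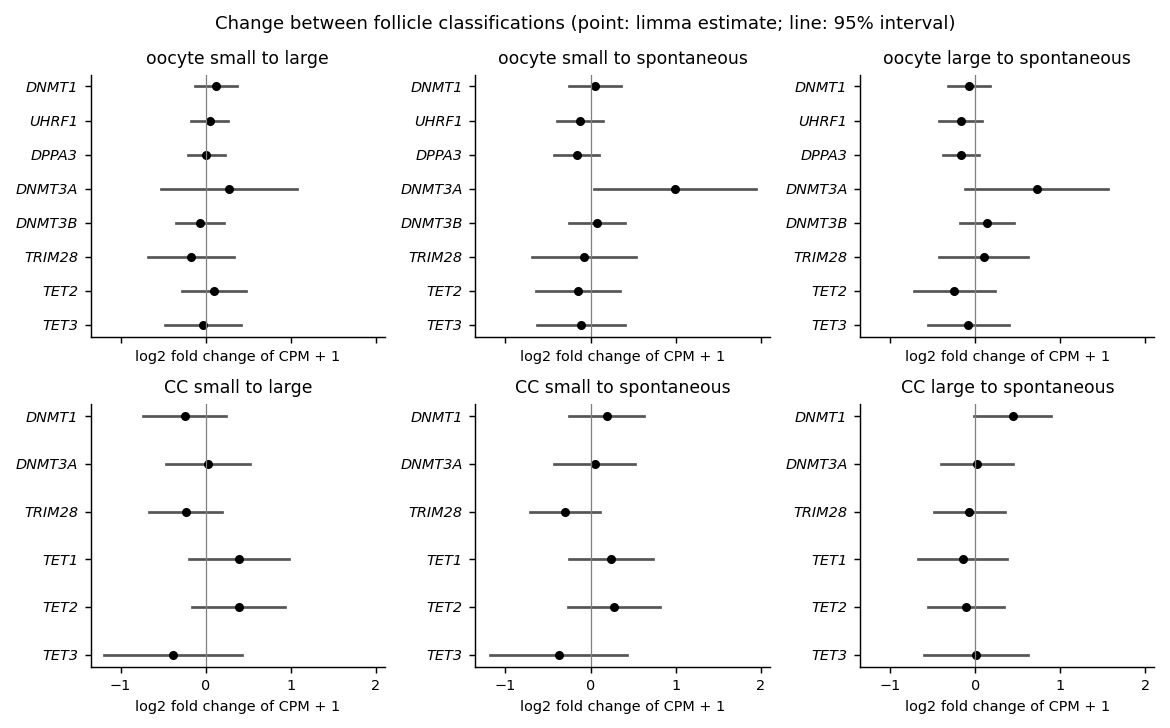
Log2 fold changes of CPM + 1 (horizontal axis, limma estimate as a point and 95% interval as a line) of each retained gene in the 6 comparisons. Intervals of DNMT1, UHRF1, DPPA3 and DNMT3B in oocytes are short and include 0, and only that of DNMT3A from small to spontaneous oocytes, from 0.04 to 1.95, lies wholly above 0.

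In oocytes, DNMT1 had 474, 642 and 771 CPM as the lowest, median and highest of the small pools and 639, 668 and 753 CPM of the large pools. Spontaneous replicates 1 to 4 had 684, 664.5, 616.5 and 644 CPM. All the large and spontaneous values lay within the range of the small pools, whose lowest was replicate 3. Mean CPM was 635 ± 97.8 for small (SD, n = 6), 687 ± 47.2 for large (n = 6) and 652 ± 28.7 for spontaneous pools (n = 4), and log2 fold changes ran from -0.07 to 0.12.

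UHRF1 had 927, 1005 and 1218 CPM as the lowest, median and highest of the small oocyte pools and 890, 1086 and 1241 CPM of the large pools. In spontaneous replicates 1 to 4 UHRF1 was at 1002, 1115, 815 and 878.5 CPM, of which 2 were lower than any other oocyte pool. Mean CPM was 1038 ± 116 for small, 1071 ± 114 for large and 953 ± 133 for spontaneous pools. The log2 fold change from large to spontaneous was -0.17 ± 0.12 (SE; limma p = 0.169, adjusted p = 0.973; exact permutation p = 0.171).

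DPPA3 had 1506, 2128 and 2492 CPM as the lowest, median and highest of the small pools and 1923, 1943 and 2409 CPM of the large pools. DPPA3 in spontaneous replicates 1 to 4 was at 2049, 1636, 1857 and 1771 CPM. Here 3 of the 4 spontaneous pools lay under every large pool, but small replicate 3 was lower than all of them. From small to spontaneous the log2 fold change was -0.16 ± 0.13 (limma p = 0.213, adjusted p = 0.987; exact permutation p = 0.248), and without small replicate 3 it was -0.25 (adjusted p = 0.912), not a call. From large to spontaneous it was -0.17 ± 0.10 (limma p = 0.111, adjusted p = 0.968; exact permutation p = 0.110), and from small to large it was 0.00 ± 0.11.

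DNMT3A showed the widest differences in oocytes. It had 13.0, 24.4 and 50.1 CPM as the lowest, median and highest of the small pools and 16.8, 26.5 and 47.3 CPM of the large pools. DNMT3A was at 93.9, 56.0, 41.0 and 21.6 CPM in spontaneous replicates 1 to 4. The 2 highest of the 16 oocyte pools were spontaneous, yet spontaneous replicate 4 lay under the median of the small pools. Group means were 25.4 ± 13.5 (small), 29.4 ± 10.8 (large) and 53.1 ± 30.6 CPM (spontaneous).

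From small to spontaneous oocytes the DNMT3A log2 fold change was 0.996 ± 0.47 (limma p = 0.0411, adjusted p = 0.987; exact permutation p = 0.0810), which did not reach the threshold for a call. It was 1.22 (adjusted p = 0.845) without small replicate 3, the highest of its group, and 0.66 (adjusted p = 0.979) without spontaneous replicate 1. Without spontaneous replicate 4 it was 1.35 (adjusted p = 0.983) and passed the nominal threshold. Over all alternative settings its adjusted p ran from 0.784 to 0.999. From large to spontaneous it was 0.72 ± 0.41 (limma p = 0.0891, adjusted p = 0.968; exact permutation p = 0.0952), and from small to large 0.28 ± 0.39 (adjusted p = 0.997). The comparisons with spontaneous pools share those 4 pools.

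DNMT3B, the related enzyme, showed no such spread. It had 343, 427 and 459 CPM as the lowest, median and highest of the small oocyte pools and 321, 380 and 536 CPM of the large pools. Its spontaneous pools had 415, 481, 370 and 473 CPM, all within the range of the large pools. Its log2 fold changes ran from -0.06 to 0.14. The DNMT3B share of reads on the pair averaged 94.0 ± 3.61% for small, 93.0 ± 2.83% for large and 89.2 ± 5.79% for spontaneous pools, and was 81.5, 89.6, 90.0 and 95.6% in the single spontaneous pools.

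**Figure D3:**
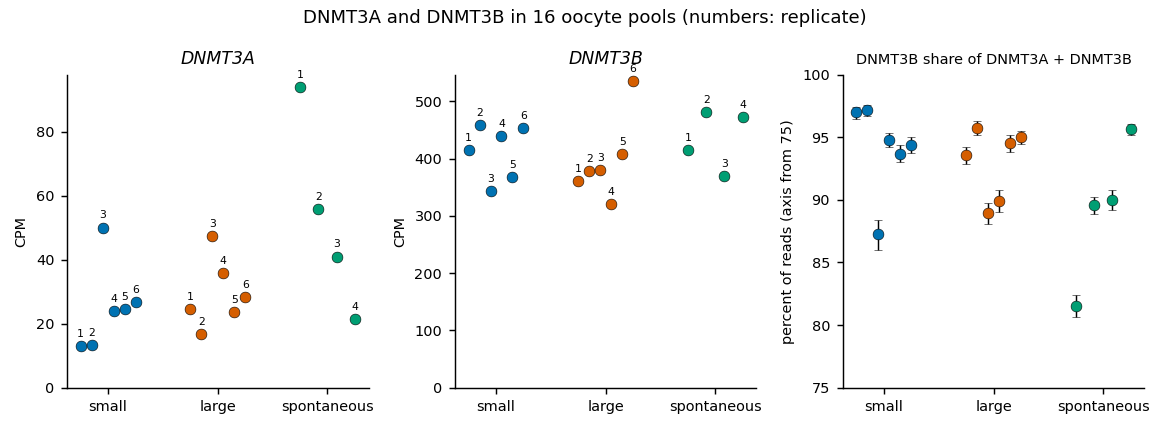
CPM of DNMT3A and of DNMT3B (vertical axes, from 0) and the share of DNMT3B among reads on both genes (percent, axis from 75, bars are exact 95% intervals of counting error) in each oocyte pool by follicle classification, with replicate numbers beside the CPM points. Spontaneous replicate 1 has the most DNMT3A, at 93.9 CPM, and the lowest share, at 81.5%, whereas spontaneous replicate 4 has 21.6 CPM and 95.6%.

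The TET genes in oocytes varied within classifications. TET2 had 141, 226 and 262 CPM as the lowest, median and highest of the small pools and 178, 230 and 324 CPM of the large pools. TET2 in the spontaneous pools was at 154, 337, 125 and 213 CPM, and these held both the lowest and the highest TET2 values of the 16. TET3 had 105, 157 and 235 CPM as the lowest, median and highest of small pools, 103, 150 and 232 CPM of large pools, and 98.5, 131, 175 and 169 CPM in spontaneous pools. Log2 fold changes lay between -0.25 and 0.10 for TET2 and between -0.11 and -0.03 for TET3. TET1, under the filter, averaged 4.18 ± 4.48 (small), 1.58 ± 0.841 (large) and 2.75 ± 4.20 CPM (spontaneous) (exact permutation p of 0.288 to 0.70).

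TRIM28 in oocytes had 56.9, 76.1 and 149 CPM as the lowest, median and highest of the small pools and 59.4, 76.3 and 87.3 CPM of the large pools. TRIM28 in spontaneous replicates 1 to 4 was at 89.4, 101, 76.4 and 56.8 CPM. The 2 highest values, 149 and 113 CPM, were small replicates 1 and 2, and the other small pools lay between 56.9 and 79.8 CPM. Its log2 fold changes lay between -0.18 and 0.10.

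In CC the retained genes had log2 fold changes of at most 0.44 in size. CPM in CC carried a general shift: the median log2 fold change of all retained transcripts was 0.05 from small to large, 0.16 from small to spontaneous, and 0.11 for large against spontaneous. The medians of the 6 genes in that order were -0.10, 0.12 and -0.03. Mitochondrially encoded reads made up 11.4 to 38.8% of the CC libraries, with the highest share in small replicate 3, and their part in these values was not tested beyond the recomputed CPM below.

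DNMT1 in CC had 37.7, 63.2 and 71.0 CPM as the lowest, median and highest of the small pools and 34.9, 46.0 and 76.3 CPM of the large pools. DNMT1 in spontaneous replicates 1 to 5 was at 78.4, 64.0, 51.7, 78.2 and 56.4 CPM. Of the large pools, replicates 2, 5 and 6 lay under every spontaneous pool and the other 3 overlapped with them. The log2 fold change from large to spontaneous was 0.44 ± 0.21 (limma p = 0.0548, adjusted p = 0.699; exact permutation p = 0.0779). From small to large it was -0.25 ± 0.23 and from small to spontaneous 0.19 ± 0.21.

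TRIM28 in CC had 50.3, 67.6 and 85.0 CPM as the lowest, median and highest of the small pools and 38.8, 59.6 and 69.9 CPM of the large pools. Spontaneous replicates 1 to 5 had 53.9, 54.4, 51.5, 40.3 and 71.7 CPM. From small to spontaneous the log2 fold change was -0.30 ± 0.19 (limma p = 0.137, adjusted p = 0.713; exact permutation p = 0.117). It was -0.46 (adjusted p = 0.744) after median-of-ratios scaling and -0.45 (adjusted p = 0.744) on CPM without mitochondrially encoded genes, neither of which was a call.

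DNMT3A had nearly equal means in CC, of 58.4 ± 17.5 for small (n = 6), 58.7 ± 13.1 for large (n = 6) and 58.8 ± 10.3 CPM for spontaneous pools (n = 5). Single pools lay between 34.0 CPM, in small replicate 1, and 80.4 CPM, in small replicate 6. Its log2 fold changes were 0.03, 0.05 and 0.02, each with an SE of 0.20 to 0.24, and turned slightly negative with median-of-ratios scaling, CPM without mitochondrially encoded genes and the count tests. Oocyte and CC pools came from the same complexes, but which pools match was not given, so the difference between cell types was fitted with all pools as independent. The change from small to spontaneous in oocytes minus that in CC was 0.95 ± 0.47 for DNMT3A (limma interaction, adjusted p = 0.819), short of a call. It passed the nominal threshold without oocyte spontaneous replicate 4, at 1.31 (adjusted p = 0.648), and was 0.62 (adjusted p = 0.860) without oocyte spontaneous replicate 1.

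Of the 5 genes retained in both tables, 0 were called in that difference between cell types from small to large, where 1.13% of 8083 transcripts were, 0 from small to spontaneous (1.22%) and 0 for large against spontaneous (0.903%). For DNMT1 the difference was -0.51 ± 0.26 from large to spontaneous (adjusted p = 0.999), its mean going from 687 to 652 CPM in oocytes and from 49.3 to 65.8 CPM in CC.

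Classifications overlapped for each TET gene in CC. TET1 had 16.3, 29.9 and 38.0 CPM as the lowest, median and highest of small CC pools and 26.7, 31.3 and 73.0 CPM of large pools. Its spontaneous pools had 37.6, 27.1, 30.9, 31.2 and 35.5 CPM. TET2 had 71.7, 175 and 236 CPM in small pools, 137, 189 and 334 CPM in large pools, again as lowest, median and highest, and 262, 168, 184, 153 and 157 CPM in the spontaneous pools. The highest TET1 and TET2 values of all CC pools were both in large replicate 2.

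TET3 in CC had 7.28, 17.7 and 49.2 CPM as the lowest, median and highest of the small pools and 8.80, 15.3 and 26.0 CPM of the large pools. TET3 in spontaneous replicates 1 to 5 was at 18.2, 12.5, 21.6, 12.3 and 12.1 CPM. Small pools thus held both extremes. From small to large the log2 fold change was -0.39 ± 0.39 for TET3, 0.39 ± 0.28 for TET1 and 0.39 ± 0.26 for TET2 (each with an adjusted p of 0.999). Under the filter, UHRF1 and DNMT3B in CC had exact permutation p of 0.117 to 0.931.

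The spread over pools differed between the genes. The coefficient of variation (CV, the SD as a percent of the mean) over the 16 oocyte pools was 10.3% for DNMT1, 11.8% for UHRF1, 13.3% for DPPA3 and 14.0% for DNMT3B. It was 27.5% for TET2, 28.2% for TET3, 29.5% for TRIM28 and 60.8% for DNMT3A, whose highest pool was 7.24 times its lowest. Counting error alone would give CVs of 0.639 to 5.50%, so the spread of all 8 was larger than that of counting.

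Low transcripts vary more in these libraries, and each gene was therefore set beside the 200 retained transcripts of nearest mean CPM. DNMT1 varied less than most of its neighbours, only 9.0% of which had a lower CV, with a median of 15.1%. DNMT3A was at the other end, with 82.5% of its neighbours lower (median 45.6%), as was TET2, with 87.5% lower (median 20.3%). DPPA3, TRIM28, UHRF1 and DNMT3B lay closer to their neighbours, with 49.0%, 41.0%, 27.0% and 25.5% of them lower. Neighbours of the highest genes were less alike in level. Their mean CPM ran from 651 to 5205 for DPPA3 (mean 2003) and from 607 to 1736 for UHRF1 (mean 1029). In CC, TET3 had a CV of 57.6% and TET2 of 32.1%, above 88.5% and 82.0% of their neighbours, while TRIM28 had 20.9%, above 19.5%. TET2 thus varied more than most transcripts of its level in both cell types. This is a description of these pools, chosen after the values had been seen, with no test.

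**Figure D4:**
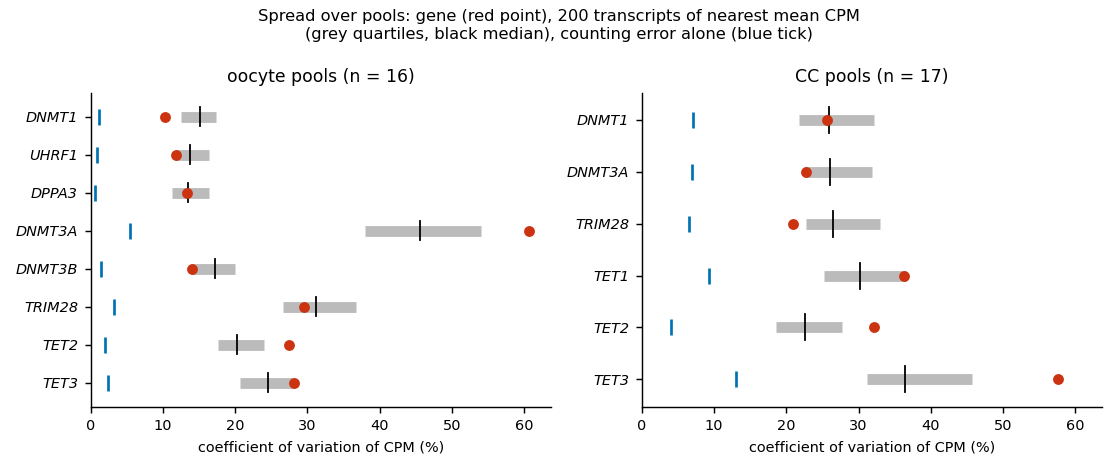
CV of CPM over pools (horizontal axis, percent, from 0) of each retained gene (red) in 16 oocyte pools and 17 CC pools, beside the quartiles (grey) and median (black) of the 200 transcripts of nearest mean CPM and the CV that counting alone gives (blue). DNMT1 in oocytes lies left of its neighbours at 10.3%, and DNMT3A in oocytes and TET3 in CC lie to the right at 60.8% and 57.6%.

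Other genes of the pathway were taken from 5 lists, whose counts by cell type stand beside the 22.9% of all genes with every oocyte pool higher and the 13.4% with every CC pool higher. Among 13 partners that set or maintain methylation, 7 were higher in every oocyte pool than in any CC pool (KDM1B, HELLS, USP7, PCNA, UHRF2, LIG1 and CDCA7), 2 were higher in CC (SETD2 and NSD1) and 4 overlapped. UHRF2, the relative of UHRF1, had 1014 to 1322 CPM over oocyte pools against 36.0 to 84.5 over CC pools, so that it was present in CC pools where UHRF1 was near the floor. NSD1, a writer of histone H3 lysine 36 methylation, had 42.0 to 98.0 CPM over oocyte pools against 160 to 395.5 over CC pools. Among 13 partners of TRIM28, 2 were higher in oocytes (SETDB1 and ATRX), 2 in CC (ATF7IP and CHD3) and 9 overlapped, shares near or under those of all genes. ATRX, a chromatin remodeller, had 418.5 to 709 CPM over oocyte pools against 196 to 395 over CC pools.

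Of 6 methyl-CpG binding proteins, 2 were higher in oocytes (MBD4 and ZBTB33) and 4 overlapped, again beside 22.9% of all genes for oocytes and 13.4% for CC. MBD4, a glycosylase that binds methylated DNA, had 283.5 to 500.4 CPM over oocyte pools against 22.0 to 44.1 over CC pools, and ZBTB38 had 23.7 to 137 and 104 to 262 CPM. Of 10 base excision repair genes, UNG, PARP1 and GADD45A were higher in oocytes and TDG and APEX1 in CC, with 5 overlapping. PARP1 had 172.5 to 316 CPM over oocyte pools against 61.2 to 131 over CC pools, and APEX1, the abasic site endonuclease, 28.4 to 108 and 109 to 287 CPM. Of 14 imprinted genes, PLAGL1 and GNAS were higher in oocytes, IGF2, SNRPN, NNAT and NAP1L5 in CC, and 8 overlapped, beside the same 22.9% and 13.4%.

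Between classifications, genes of these lists were called 6 times among 297 values (2.02%) by limma at the nominal threshold, beside 0.655 to 2.38% of all transcripts in the 6 comparisons, all 6 with an adjusted p of 0.390 or more, and 0 times in oocytes from small to large (0.655% of all transcripts) or from small to spontaneous (0.774%). From large to spontaneous oocytes, SETD2, which trimethylates histone H3 lysine 36, fell (1 of 13 retained partners), as did the imprinted gene PEG10 (1 of 8). Of all transcripts, 0.546% were called lower and 0.943% were called in either direction. PEG10 had 22.1, 35.4 and 85.5 CPM as the lowest, median and highest of the large oocyte pools and 11.8, 22.0, 5.92 and 17.6 CPM in the spontaneous pools. These ranges only just failed to overlap, at 22.1 against 22.0 CPM, and 0.913% of all retained transcripts did not overlap here. The PEG10 log2 fold change was -1.56 ± 0.45 (limma p = 0.00188, adjusted p = 0.909, exact permutation p = 0.0190). SETD2 had 24.7, 41.0 and 102 CPM in large pools and 14.0, 28.2, 21.5 and 7.69 CPM in spontaneous pools, with overlap, and a log2 fold change of -1.33 ± 0.45 (limma p = 0.00613, adjusted p = 0.968; exact permutation p = 0.0476). The SETD2 call was lost without large replicate 2, 5 or 6 or spontaneous replicate 1 or 4, at -1.01 to -1.30, and the PEG10 call without spontaneous replicate 3, at -1.22.

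In CC, UNG, the uracil glycosylase, rose from small to large and from small to spontaneous, comparisons that share the small pools. UNG was 1 of 9 retained repair genes, beside 0.69% and 2.28% of all transcripts called higher and 0.813% and 2.38% called in either direction. It had 5.75, 6.87 and 12.0 CPM as the lowest, median and highest of small pools, 9.56, 15.9 and 23.5 CPM of large pools, and 14.0, 14.4, 22.7, 13.6 and 12.6 CPM in spontaneous pools. All the spontaneous pools lay above all the small ones, beside 1.16% of retained transcripts without overlap, whereas small and large overlapped. The log2 fold changes were 0.93 ± 0.32 (limma p = 0.00845, adjusted p = 0.999; exact permutation p = 0.00866) and 0.90 ± 0.28 (limma p = 0.00475, adjusted p = 0.390; exact permutation p = 0.00433). With median-of-ratios scaling they were 0.88 (adjusted p = 0.990) and 0.76 (adjusted p = 0.744), which were not calls. The first was also lost, at 0.82 to 0.99, without any single pool of 9 of the 12, and the second without spontaneous replicate 2 or 3.

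The imprinted gene MEST rose from small to spontaneous CC, 1 of 12 retained, beside 2.28% of all transcripts called higher and 2.38% called in either direction. MEST rose by 0.82 ± 0.27 (limma p = 0.00819, adjusted p = 0.418, exact permutation p = 0.0281). It had 12.6, 17.2 and 36.6 CPM as the lowest, median and highest of small pools and 44.3, 42.5, 35.0, 30.7 and 34.8 CPM in spontaneous pools. The MEST call was lost without any single pool of 8 of the 11, at 0.68 to 0.84, and it was also lost with median-of-ratios scaling, at 0.66 (adjusted p = 0.822), on CPM without mitochondrially encoded genes, at 0.67 (adjusted p = 0.818), and by edgeR's quasi-likelihood test, at 0.54 (adjusted p = 0.840). IGF2, an imprinted growth factor, fell from large to spontaneous CC by 0.77 ± 0.26 on the log2 scale (limma p = 0.00848, adjusted p = 0.567, exact permutation p = 0.0390). This was 1 of 12, beside 0.206% of all transcripts called lower and 1.66% called in either direction. IGF2 had 181, 367 and 528 CPM in large pools and 150, 206, 132, 263 and 290 CPM in spontaneous pools, with overlap, and 0 to 17.1 CPM in oocytes. That call was lost without large replicate 1, 2, 3 or 4 or spontaneous replicate 1, 2 or 3, at -0.62 to -0.78.

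In oocytes the 5 lists' median log2 fold changes lay between -0.06 and 0.20 from small to large, -0.23 and 0.26 from small to spontaneous, and -0.24 and -0.03 from large to spontaneous, beside 0.05, 0.05 and 0.01 over all transcripts. In CC they lay between -0.11 and 0.13, -0.10 and 0.21, and -0.12 and 0.25, beside 0.05, 0.16 and 0.11. Between large and spontaneous oocytes, picked out after the values were seen, 10 of 12 retained TRIM28 partners and 5 of 5 methyl-CpG binding proteins had negative log2 fold changes, of which 0 were calls, while 4947 of 10076 transcripts were negative. In the other lists 8 of 13 methylation partners, 5 of 9 repair genes and 5 of 8 imprinted genes were negative. All were measured in the same pools, so the genes are not independent, and these counts were not tested.

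**Figure D5:**
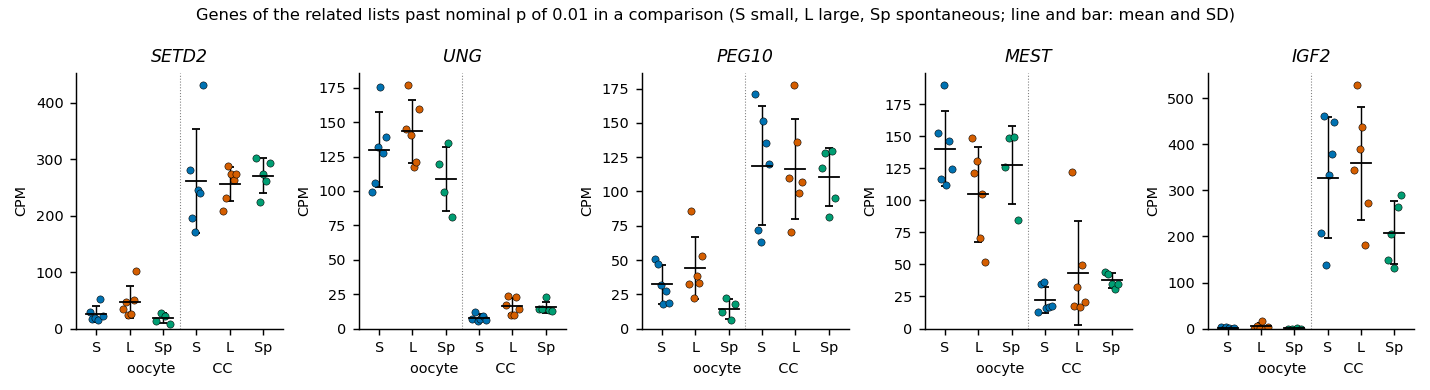
CPM (vertical axes, from 0) of the 5 genes of the related lists that passed a nominal p of 0.01 in a comparison, with 1 point per pool and the mean and SD in black, in small (S), large (L) and spontaneous (Sp) follicles of oocytes and CC. PEG10 in spontaneous oocyte pools reaches at most 22.0 CPM, under the lowest large pool at 22.1 CPM, and UNG in CC is lowest in the small pools.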

How the data were processed

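RNA of oocyte and CC pools was amplified and sequenced by the authors, who mapped the reads to UMD3.1 by Hisat2 and assigned them to Ensembl genes by featureCounts. Deposited columns hold CPM, scaled by the authors to 1000000 reads on genes in each library. The strand setting of the counting is not given in the sources used here, so antisense transcripts cannot be told apart. All deposited columns matched a pool by name, and no column held a comparison of the authors' own.

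Whole reads were recovered from 100% of the CPM values, within 0.01 reads. No libraries of a group agreed within sampling noise, chi-square over degrees of freedom being at least 60.9 (oocytes) or 13.4 (CC). limma 3.58.1, with a mean-variance trend and without covariates, was fitted to log2(CPM + 1) of 2 classifications at a time over all retained transcripts, with Benjamini-Hochberg adjustment over them. The difference between cell types of a change was a contrast in 1 fit of all 33 pools, taken as independent although oocyte and CC pools share complexes. Since the study's methods used count tests, recovered reads were also tested, as alternatives, by edgeR 4.0.16 and DESeq2 1.42.0 in R 4.3.3. Further settings tried were adding 0.1 in place of 1 CPM, leaving out the filter, a filter on the mean (1 CPM or more), scaling by medians of ratios, CPM without mitochondrially encoded genes, all 3 classifications in a single fit, the replicate number as a block, and each pool left out in turn. Exact permutation tests covered 924 regroupings (6 against 6), 462 (6 against 5) or 210 (6 against 4), with smallest possible p of 0.00216, 0.00216 and 0.00476. Tests were tried on simulated data first. Python 3.11.15, pandas 2.3.3, scipy 1.17.1 and matplotlib 3.10.9 were used for tables and figures.

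The members and lists were chosen with earlier results of these data known. Genes named are all members, list genes called in a comparison, the gene of highest median CPM of each list and cell type, and for each retained member the transcript best correlated with it in oocytes. Genes that divide the cell types, TNFAIP6, FSHR and INHA were named after their values were seen. No genome of the build UMD3.1 was used, so no coordinates or sequences are given.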

Additional observations from a re-analysis of the deposited data

Results flagged for a closer look

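Each gene was checked in each group of 4 to 6 pools for a highest or lowest pool far from the others by Dixon's ratio, in 51 groups in all. Of these, 4 (7.84%) stood out, where chance alone gives about 5%, and where 7.92 to 13.6% of all retained transcripts stood out in the same way. DNMT3A was highest in oocyte small replicate 3 at 50.1 CPM, the next small pool having 26.9 CPM. UHRF1 was highest in CC small replicate 4 at 11.2 CPM, or 37 reads, the next small pool having 2.62 CPM; the oocyte markers of that pool summed to 5.77 CPM, within the 1.57 to 13.7 CPM of CC pools. TET1 was highest in CC large replicate 2 at 73.0 CPM, the next large pool having 41.0 CPM. TET2 was highest in CC spontaneous replicate 1 at 262 CPM, the next spontaneous pool having 184 CPM. For DNMT3A and TET2 Dixon's ratio only just passed its critical value, at 0.6256 against 0.625 and 0.7117 against 0.71. UHRF1 lay under the filter in CC, whereas the shares over all transcripts cover retained ones only. No change of a gene of the group between classifications was called as different between oocytes and CC.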

How the results depend on the processing

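Of 1411 values of single genes recomputed under another setting, 78 changed sign, all of them values that were not called under either setting and none larger than 0.148 on the log2 scale. Outside the fits that left out a pool, 30 did so. In the order median-of-ratios scaling, CPM without mitochondrially encoded genes, edgeR quasi-likelihood, edgeR likelihood ratio and DESeq2, the values were -0.029, -0.0034, -0.042, -0.042 and -0.047 for DPPA3 from small to large oocytes, -0.024, -0.067, -0.040, -0.040 and -0.041 for DNMT3A from small to large CC, -0.11, -0.10, -0.14, -0.14 and -0.15 for DNMT3A from small to spontaneous CC, -0.083, -0.035, -0.11, -0.11 and -0.11 for DNMT3A from large to spontaneous CC, and -0.085, -0.039, -0.14, -0.14 and -0.14 for TET3 from large to spontaneous CC. For DNMT1 from small to spontaneous oocytes the last 3 of these settings gave -0.0058, -0.0058 and -0.011. For the change in oocytes minus that in CC from large to spontaneous, edgeR quasi-likelihood gave 0.072 for TET2 and 0.023 for TET3. The cause was not tested.

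With 1 pool left out, values that changed sign ranged as follows. In oocytes from small to large, TET2 ran from -0.023 to 0.17, TET3 from -0.16 to 0.094 and DPPA3 from -0.083 to 0.063. In oocytes from small to spontaneous, DNMT1 ran from -0.029 to 0.11, TET2 from -0.42 to 0.058, TET3 from -0.22 to 0.052 and TRIM28 from -0.20 to 0.084. In oocytes from large to spontaneous, TET3 ran from -0.19 to 0.085 and TRIM28 from -0.019 to 0.25. In CC, DNMT3A ran from -0.11 to 0.16 from small to large, from -0.094 to 0.15 from small to spontaneous and from -0.12 to 0.0995 from large to spontaneous. In CC from large to spontaneous, TET1 ran from -0.23 to 0.051, TET2 from -0.24 to 0.044, TET3 from -0.13 to 0.17 and TRIM28 from -0.17 to 0.031. For the change in oocytes minus that in CC, TRIM28 ran from -0.052 to 0.22 (small to large), TET2 from -0.40 to 0.070 and TET3 from -0.25 to 0.073 (both large to spontaneous).

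The number of the 10 genes called was 0 under every other setting in each comparison, and 0 to 1 with 1 pool left out from small to spontaneous, in oocytes and in the difference between cell types, the call being DNMT3A without oocyte spontaneous replicate 4 in both. The number of list genes called was more dependent on the setting, and its alternatives were added after the data had been seen. From small to spontaneous oocytes DESeq2 called 1 in place of 0. From large to spontaneous oocytes 1 in place of 2 was called without the filter, and 1 to 4 with 1 pool left out. From small to large CC 0 in place of 1 was called with median-of-ratios scaling, CPM without mitochondrially encoded genes and edgeR quasi-likelihood, and 0 to 1 with 1 pool left out. From small to spontaneous CC, in place of 2, the count was 1 without the filter, 0 with median-of-ratios scaling, 0 without mitochondrially encoded genes, 1 with all 3 classifications in a fit, 0 by edgeR quasi-likelihood, 1 by edgeR likelihood ratio and 0 to 3 with 1 pool left out. From large to spontaneous CC, in place of 1, it was 0 without the filter, 0 with all 3 classifications in a fit, 2 by DESeq2 and 0 to 1 with 1 pool left out.

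Within a cell type, the replicate numbers did not pair the pools of different classifications: correlations of same-numbered pools ran from -0.19 to 0.224, and at most 1 pool of a comparison correlated best with its own number. Between same-numbered oocyte and CC pools of a classification they ran from -0.0397 to 0.077 over 8083 transcripts, a check added after the data had been seen. There 3 of 6 small oocyte pools correlated best with the CC pool of their own number, as did 1 of 6 large and 1 of 4 spontaneous. The correlations of the small pools ran from 0.0138 to 0.077. With the replicate number as a block, 0 of the 10 genes were called in any comparison, and list genes called numbered 1 from large to spontaneous oocytes, 0 from small to spontaneous CC and 0 from large to spontaneous CC. Depth limits UHRF1 and DNMT3B in CC, with 0 to 37 and 0 to 21 reads a pool, and TET1 in oocytes, and these were not fitted.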

Other observations

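For each of the 8 genes retained in oocytes, the transcript with the most alike profile was taken by Pearson's r of log2(CPM + 1) over the 16 oocyte pools among 10075 other retained transcripts. The best match of DNMT1 was OSBPL9 (r = 0.734), of DNMT3B PTPRA (r = 0.823), of TET2 WDR62 (r = 0.868), of UHRF1 GABRB2 (r = 0.814), of DPPA3 ARIH2 (r = 0.797) and of TRIM28 RIOX2 (r = 0.841). The best match of DNMT3A was ENSBTAG00000047461 (r = 0.865), and that of TET3 was ENSBTAG00000001483 (r = 0.849). Among the 8 genes themselves the highest r was that of UHRF1 with TRIM28, at 0.586. These are the highest of many values over the same libraries and are given as a description.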
